A study of Mus musculus with 5 samples.

Results

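The liver X receptor (LXR) target and cholesterol efflux genes examined here were 9 of the 28693 features counted in lung immune cells after bleomycin: *Abca1*, *Abcg1*, *Mylip*, *Apoc1*, *Apoe*, *Pltp*, *Nr1h3*, *Nr1h2* and *Lpcat3*. They were picked by symbol, and each symbol matched 1 row of the count tables. The genes were chosen with their levels in these libraries known, so their own values are given as a description, with counting intervals and no test. Tests were made only for 4 lists of other genes of the pathway. These lists were also chosen with earlier results of these data known, which limits what their p-values can show.

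LXRs are nuclear receptors that bind oxysterols, which are oxidised forms of cholesterol, and they act on DNA as heterodimers with retinoid X receptors. When a macrophage takes up cholesterol from surfactant, lipoproteins or dying cells, LXRs switch on genes that move the surplus out of the cell. Among these are the transporters ABCA1 and ABCG1, the apolipoproteins that accept cholesterol, and the phospholipid transfer protein PLTP. Others encode the membrane phospholipid enzyme LPCAT3 and MYLIP (also called IDOL), a ubiquitin ligase that marks the LDL receptor for destruction. Alveolar macrophages, which clear surfactant, are known for their dependence on ABCG1, and lipid-laden macrophages are a feature of the lung after bleomycin.

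LXR heterodimers bind a direct repeat of a 6-base unit with a spacer of 4 bases (DR4, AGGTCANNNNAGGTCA), and the promoter of *Abca1* is known to carry such an element. RefSeq promoters of GRCm38.p6, each running from 250 bases before to 50 bases after the transcription start, matched 7 of the 9 genes, and *Abcg1* and *Apoc1* are named only. Both strands of each promoter were searched for the window of 16 bases that shares the most of the 12 fixed letters with DR4. The closest windows are shown for *Abca1* and for the 2 receptor genes, with the matching letters in capitals, in the direction of transcription:
*Abca1* (chr4:53159947-53159962): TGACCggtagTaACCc
*Nr1h3* (chr2:91195151-91195166): gGcCgTgccggGACCT
*Nr1h2* (chr7:44554089-44554104): aGAaCTttccgGAaCT
The *Abca1* window matched 9 of 12 letters, read on the opposite strand, and began 67 bases before the start. A match at least this close was present in 21.9% of all 32851 promoters. *Nr1h3* and *Nr1h2* matched 8 letters, as did *Apoe* and *Lpcat3*, a closeness reached by 76.9% of promoters, and *Mylip* and *Pltp* matched 7. A match of letters is not a binding site, and elements outside these windows were not searched. The whole *Abca1* promoter, chr4:53159846-53160145 on the minus strand, is printed because the level of *Abca1* differed in time and between macrophage types, and the 16-base window is in capitals:
*Abca1* promoter: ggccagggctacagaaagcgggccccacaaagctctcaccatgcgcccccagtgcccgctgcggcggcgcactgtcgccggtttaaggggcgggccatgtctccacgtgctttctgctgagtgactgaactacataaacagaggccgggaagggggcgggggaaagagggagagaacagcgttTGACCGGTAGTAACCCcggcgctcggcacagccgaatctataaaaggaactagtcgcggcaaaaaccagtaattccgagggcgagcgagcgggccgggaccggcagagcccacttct

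In GRCm38, *Apoe* (chromosome 7, 19696109 to 19699188) and *Apoc1* (19689481 to 19692660) lie on the minus strand of the same cluster, with 3448 bases between them. *Nr1h2* is also on chromosome 7 (44549616 to 44553951, minus strand), while *Nr1h3* (91184061 to 91202834) and *Pltp* (164839518 to 164857711) are on the minus strand of chromosome 2. *Abca1* spans 53030787 to 53159895 of chromosome 4, *Abcg1* 31057675 to 31117988 of chromosome 17, *Mylip* 45389742 to 45412022 of chromosome 13 and *Lpcat3* 124663027 to 124704418 of chromosome 6. *Pltp* overlaps *Ctsa* and *Lpcat3* overlaps *Emg1*, each on the other strand, and *Nr1h3* overlaps the transcript Gm13783 on its own strand, so that some reads near *Nr1h3* may be assigned to either.

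The samples were 5 droplet scRNA-seq libraries of lung cells labelled as immune cells, all from *Ms4a3-CreER;R26-tdT* mice, in which tamoxifen switches on the tdT reporter in cells that express *Ms4a3*, a gene of monocyte and granulocyte progenitors. The sham library came from PBS-treated lungs, and the others from lungs 3, 7, 14 and 28 days after bleomycin, a drug that injures the alveolar epithelium and is followed by fibrosis. The study used adult mice of both sexes on a mixed C57BL6/129 background, and the paper does not state the sex of the mice in each library. There is 1 library per time point, the labels do not give how many mice it holds, and no difference between time points was tested. Raw UMIs, which count RNA molecules by their 3′ ends, summed to between 89769386 and 167506186 per library. After filters on genes, UMIs and mitochondrial share, 44772 of 52800 barcodes were kept, and any 2 libraries shared 16 to 31 barcodes. The day 7 library held exactly 10000 barcodes and none under 4624 UMIs, against 500 to 502 in the other libraries.

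Macrophages were sorted into types by the summed UMIs of fixed markers, none of which is among the 9 genes. Alveolar macrophage-like (AM-like) cells carried *Car4*, *Krt79*, *Ear1*, *Siglecf*, *Plet1*, *Atp6v0d2*, *Krt19* or *Fabp1*, with at least 3 of these 8 detected, and C1q macrophages carried *C1qa*, *C1qb* and *C1qc*. Each was divided by the fibrotic markers *Gpnmb*, *Mmp12* and *Mfge8*. There were 5036, 642, 1577, 1609 and 2856 AM-like cells without fibrotic markers in the sham, day 3, day 7, day 14 and day 28 libraries, and 64, 835, 1862, 1488 and 1576 C1q macrophages with or without them. AM-like cells with fibrotic markers numbered 148 in sham, 69 at day 7, 85 at day 14 and 565 at day 28, and the 18 at day 3 were too few to use. These fibrotic-marker cells held less of the defining marker *Car4*, at 68.8 CPM at day 28 against 321 CPM in the other AM-like cells, while *Atp6v0d2* stood at 1176 against 996 CPM, so they are named by their gate and not as Car4 macrophages. The gates are ranges of a score: within the macrophages, 1.51% of cells in sham and 25.5% at day 28 lay within 1.5 times of the alveolar limit. In AM-like cells without fibrotic markers, *Car4* was at 1290 CPM in sham and 1808, 679, 352 and 321 CPM at day 3, 7, 14 and 28. Those with 3 or more UMIs of the tdT reporter were 28.7%, 24.1%, 15.2%, 69.0% and 35.9% in the same order. Levels over time in this gate are thus not those of 1 fixed set of cells, and the part of its make-up in them was not tested. Levels below are CPM, a gene's UMIs per 1000000 UMIs summed over a type, and parentheses hold exact 95% Poisson intervals, which cover counting error only.

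The 9 genes did not move as a block, and the 2 transporters were higher in different types. *Abcg1* was 3.88 to 10.9 times higher in AM-like cells than in C1q macrophages of the same library, whereas *Abca1* was 1.31 to 2.39 times higher in C1q macrophages. These C1q macrophages include cells with fibrotic markers and the AM-like cells do not. *Apoe* was 30.4 to 177 times higher in C1q macrophages. In AM-like cells, *Abca1* was at 46.0 to 52.3 CPM in sham and at day 3 and at 95.3 to 126 CPM from day 7 on, while *Apoe* and *Apoc1* were above sham on all 4 days. Types that should lack *Apoe* were also above sham on those days, so its level is not read as expression in AM-like cells.

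**Figure D1:**
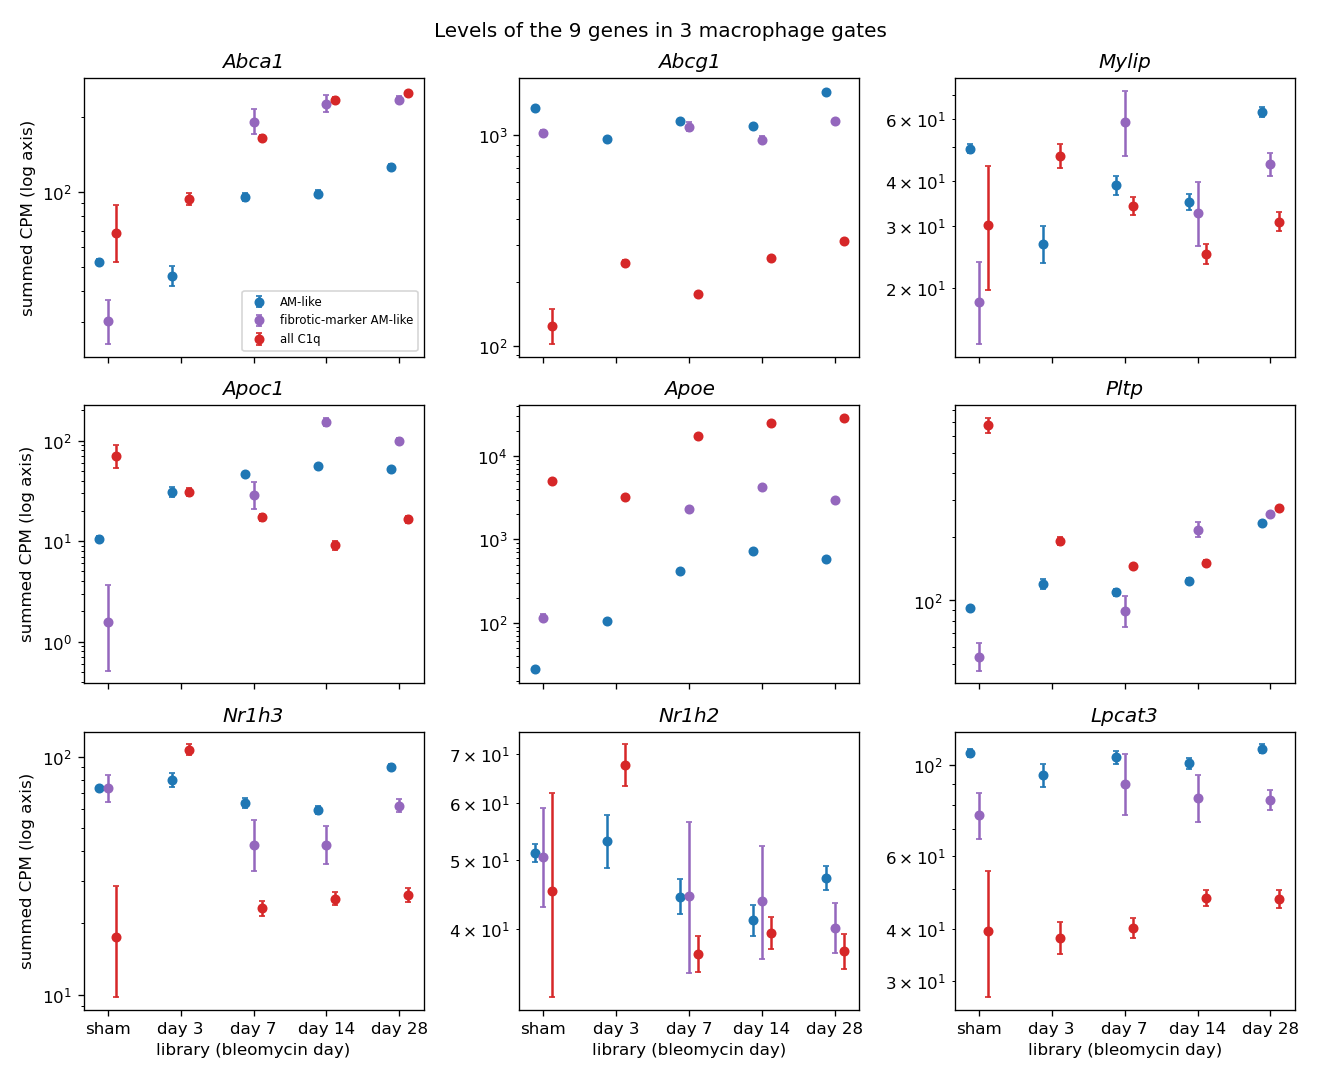
Summed CPM of the 9 genes (log axes, 1 panel per gene) in AM-like cells, AM-like cells with fibrotic markers and all C1q macrophages, by library; bars are 95% Poisson intervals of the counts and no fibrotic-marker point is drawn at day 3, where there were 18 cells. Abcg1 and Lpcat3 are lower in C1q macrophages in every library, Apoe is higher in every library, and Nr1h3 is high in C1q macrophages at day 3 alone.

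Among the receptors, *Nr1h3* encodes LXRα, the form enriched in macrophages and liver. In AM-like cells it was at 73.5 CPM in the sham library (71.7 to 75.3), 79.6 CPM at day 3 (74.2 to 85.2), 63.8 CPM at day 7 (60.8 to 66.8), 59.5 CPM at day 14 (57.2 to 62.0) and 90.6 CPM at day 28 (88.1 to 93.2). Day 14 was lowest and day 28 highest. In C1q macrophages it was at 17.4 CPM in the sham library (9.75 to 28.7), 107 CPM at day 3 (101 to 113), 23.0 CPM at day 7 (21.4 to 24.8), 25.3 CPM at day 14 (23.8 to 27.0) and 26.3 CPM at day 28 (24.6 to 28.1). Day 3 stood apart in this type: its level was above that of AM-like cells, with a log2 ratio of 0.42 (0.30 to 0.55), while in the other 4 libraries the ratio lay between -2.08 and -1.23. The log2 ratio of day 7 to day 3 in C1q macrophages was -2.21, a difference between 1 library and another. The day 3 C1q macrophages still carried the monocyte gene *Ly6c2*, at 2951 CPM in those without fibrotic markers, against 81.7 CPM at day 7.

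The early recruited macrophages of day 3, which carry *Ly6c2* and *Ms4a7* and little C1q, had the highest *Nr1h3* level of any macrophage type and library with at least 20 cells, 131 CPM (95% interval 125 to 138) over 757 cells. Classical monocyte-like cells of the same library were at 49.8 CPM (95% interval 45.6 to 54.3), and those of sham at 12.7 CPM (95% interval 8.07 to 19.1). The day 3 levels of the classical monocyte-like, *Ly6c2* *Ms4a7* and C1q gates were all above that of sham monocytes. In T, NK and innate lymphoid-like cells *Nr1h3* was between 4.79 and 10.0 CPM in the other libraries and at 19.4 CPM at day 3.

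*Nr1h2* encodes LXRβ, which is expressed in most tissues. Its levels in the types lay close together: 51.1 CPM in sham and 53.0, 44.4, 41.2 and 47.2 CPM at day 3, 7, 14 and 28 in AM-like cells and 45.3 CPM in sham and 67.6, 37.0, 39.6 and 37.3 CPM at day 3, 7, 14 and 28 in C1q macrophages. The log2 ratio of C1q to AM-like cells ran from -0.34 (-0.44 to -0.24) at day 28 to 0.35 (0.19 to 0.51) at day 3, and its interval spanned 0 in sham and at day 14. T, NK and innate lymphoid-like cells, called lymphoid cells here and without B cells, held a like amount, 41.6 to 76.8 CPM.

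Of the transporters, ABCG1 moves cholesterol to mature HDL particles. In AM-like cells *Abcg1* was at 1355 CPM in the sham library (1347 to 1363), 956 CPM at day 3 (937 to 975), 1164 CPM at day 7 (1152 to 1177), 1109.5 CPM at day 14 (1099 to 1119.8) and 1612 CPM at day 28 (1601 to 1623). It was highest at day 28 and lowest at day 3, and neighbouring levels in this order did not have overlapping counting intervals. In C1q macrophages it was at 124 CPM in the sham library (102 to 150.1), 247 CPM at day 3 (238 to 255), 176 CPM at day 7 (171 to 181), 262 CPM at day 14 (257 to 267) and 313 CPM at day 28 (307 to 319). The 2 types did not overlap in any library, and the log2 ratio of C1q to AM-like cells was -3.45 (-3.73 to -3.17) in sham, -1.95 (-2.01 to -1.90) at day 3, -2.73 (-2.77 to -2.69) at day 7, -2.08 (-2.11 to -2.05) at day 14 and -2.36 (-2.39 to -2.33) at day 28. With each cell thinned to 3000 UMIs, 88.0% (day 3) to 96.1% (day 28) of AM-like cells had an *Abcg1* UMI, so the level was spread over nearly the whole type. The share among C1q macrophages without fibrotic markers was 20.8% in sham and 46.8% at day 14, against 22.8% and 21.9% of T, NK and innate lymphoid-like cells. In sham the C1q share was therefore no higher than that of lymphoid cells, which had a median of 5092 UMIs per cell against 9949 in C1q macrophages; unthinned, the shares were 56.4% and 34.9%.

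ABCA1 loads cholesterol and phospholipid onto lipid-poor apolipoproteins. In AM-like cells *Abca1* was at 52.3 CPM in the sham library (50.8 to 53.8), 46.0 CPM at day 3 (42.0 to 50.4), 95.3 CPM at day 7 (91.7 to 99.0), 98.4 CPM at day 14 (95.3 to 101) and 126 CPM at day 28 (123 to 129). Sham and day 3 were low, the intervals of day 7 and day 14 overlapped, and day 28 was highest. Over sham, the log2 ratio was -0.18 (-0.32 to -0.05) at day 3, 0.87 (0.80 to 0.94) at day 7, 0.91 (0.85 to 0.97) at day 14 and 1.27 (1.22 to 1.33) at day 28. In C1q macrophages *Abca1* was at 68.5 CPM in the sham library (52.1 to 88.3), 93.7 CPM at day 3 (88.5 to 99.2), 164 CPM at day 7 (160.0 to 169), 235 CPM at day 14 (229.9 to 239.7) and 249 CPM at day 28 (244 to 254). The order of the libraries in this type was sham, day 3, day 7, day 14 and day 28, in which the interval of sham, which rests on 64 cells, ended at 88.3 CPM, just short of the 88.5 CPM at which that of day 3 began. C1q macrophages were above AM-like cells in each library, with a log2 ratio of 0.39 (-0.01 to 0.76) in sham, where the interval reached below 0, and of 0.79 to 1.26 after bleomycin. T, NK and innate lymphoid-like cells held 11.5 CPM in sham and 10.1, 15.8, 31.7 and 68.7 CPM at day 3, 7, 14 and 28, below both types in every library. B cell-like cells held more, 47.6 CPM in sham and 66.2, 73.7, 99.99 and 125.5 CPM at day 3, 7, 14 and 28. They were above AM-like cells at day 3 and close to them at day 14 and day 28, and below C1q macrophages in every library.

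AM-like cells with and without fibrotic markers also differed in *Abca1*. Those with the markers were at 30.3 CPM in the sham library (24.5 to 37.0), 192 CPM at day 7 (171 to 215), 226 CPM at day 14 (209 to 244) and 235 CPM at day 28 (227 to 242). They were below the other AM-like cells in sham and above them in the 3 later libraries, with log2 ratios of -0.79 (-1.10 to -0.50), 1.01 (0.83 to 1.18), 1.20 (1.08 to 1.32) and 0.89 (0.83 to 0.95). Within C1q macrophages, those with fibrotic markers were higher by a log2 ratio of 1.26 (1.09 to 1.42) at day 3, 0.73 (0.64 to 0.81) at day 7, 0.18 (0.12 to 0.24) at day 14 and 0.56 (0.47 to 0.66) at day 28. The C1q macrophages compared with AM-like cells above included cells with these markers, and those AM-like cells did not. Without the markers, C1q macrophages were at 84.6, 64.0, 140, 221 and 179 CPM in library order. AM-like cells without them were at 52.3, 46.0, 95.3, 98.4 and 126 CPM. With the markers, C1q macrophages were at 231, 251 and 265 CPM at day 7, 14 and 28, beside the AM-like levels given above. The part of the markers in the type difference was not tested. After thinning, 40.5% of fibrotic-marker AM-like cells had an *Abca1* UMI at day 14 and 16.6% of the other AM-like cells, with 6.50% in lymphoid cells.

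**Figure D2:**
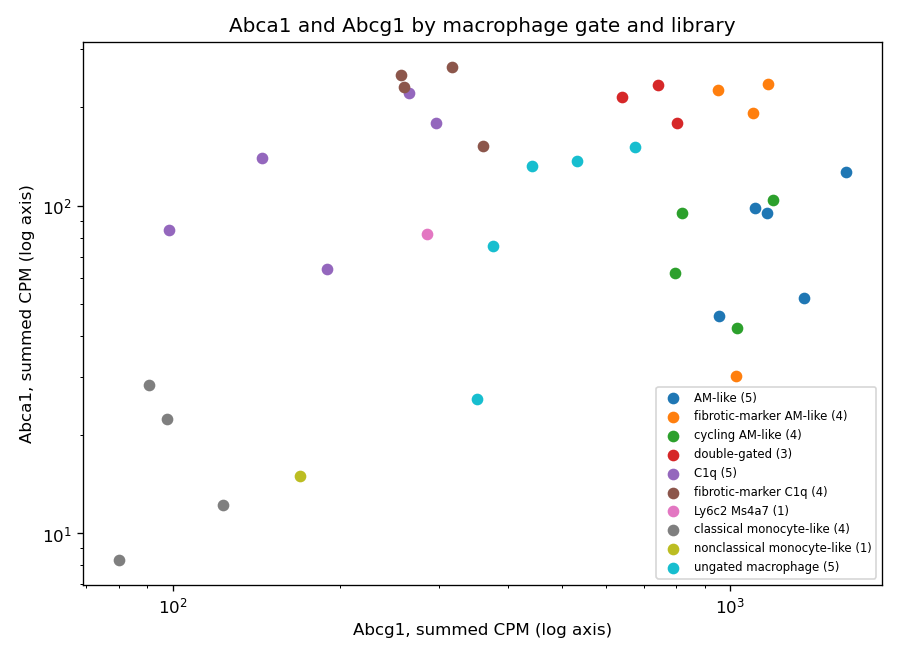
Abca1 against Abcg1 (summed CPM, both axes log) for the 36 pairs of macrophage type and library with at least 50 cells; colours mark the type and the number of libraries is in the legend. AM-like cells sit at the right, between 956 and 1612 CPM of Abcg1, and C1q macrophages without fibrotic markers at the left, between 98.7 and 297 CPM.

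Over these 36 pairs of type and library, the Pearson correlation of log2(CPM + 10) between *Abca1* and *Abcg1* was 0.38. *Abcg1* went most closely with *Lpcat3* (0.89) and *Nr1h3* (0.60), and *Abca1* with *Apoe* (0.63), while *Abcg1* and *Apoe* were at -0.40. Types of 1 library share their depth and free RNA, so these are descriptions of 36 dependent points. Among 3030 genes at a mean of at least 50 CPM, the 3 most like *Abca1* were *Slc36a1* (r = 0.93), *Trem2* (0.90) and *Itgb5* (0.89). *Rtn3* (0.96), *Abhd5* (0.95) and *Plekhb2* (0.95) were most like *Abcg1*, *Lgals8* (0.89), *Cd300lf* (0.88) and *Pdcd6* (0.85) most like *Nr1h3*, and *Tmem37* (0.87) and *C1qb* (0.86) were among those most like *Apoe*. For *Pltp* the 3 were *Sepp1* (0.69), *Lyz1* (0.69) and *Adgre1* (0.61), and for *Apoc1* they were *Gsn* (0.61), *Myo9b* (0.57) and *Plekha2* (0.54).

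*Apoe* encodes apolipoprotein E, an acceptor of effluxed cholesterol and a ligand of lipoprotein receptors. In C1q macrophages it was at 4937 CPM in the sham library (4789.7 to 5088), 3227 CPM at day 3 (3196 to 3258), 17137 CPM at day 7 (17092 to 17183), 25084 CPM at day 14 (25033 to 25134) and 28605 CPM at day 28 (28547 to 28662). Day 3 was lowest and day 28 was 8.86 times day 3. Among single C1q macrophages without fibrotic markers at day 28, the median was 206 *Apoe* UMIs per 10000 UMIs, with a 10th percentile of 19.0 and a 90th of 740.2. The spread between cells was wide, and in those with fibrotic markers the 10th percentile was 77.2.

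In AM-like cells *Apoe* was at 27.9 CPM in the sham library (26.8 to 29.0), 106 CPM at day 3 (99.9 to 113), 416 CPM at day 7 (408 to 423), 726 CPM at day 14 (717 to 734) and 578 CPM at day 28 (572 to 584). These values were 3.81, 14.9, 26.1 and 20.8 times sham at day 3, 7, 14 and 28. Types that should lack *Apoe* carried it too. Per barcode, AM-like cells held 0.485, 1.70, 7.38, 18.2 and 11.1 *Apoe* UMIs in sham and at day 3, 7, 14 and 28, T, NK and innate lymphoid-like cells 0.0603, 1.33, 7.63, 8.65 and 11.3, and conventional dendritic-like cells 0.0679, 1.16, 3.49, 5.38 and 5.89. AM-like barcodes thus held about as much as lymphoid barcodes at day 3, 7 and 28, and more at day 14 and in sham. As CPM, lymphoid cells were at 10.9 CPM in sham and 145, 778, 1575 and 2278 CPM at day 3, 7, 14 and 28, which was below AM-like cells in sham and above them on all 4 bleomycin days. After thinning to 3000 UMIs, 66.8% of AM-like cells and 88.4% of lymphoid cells had an *Apoe* UMI at day 14. Before thinning the shares were 99.4% and 96.8%, at median depths of 22827 and 4600.0 UMIs. The shallower lymphoid cells give free RNA more weight in CPM, and the measures do not point one way at day 14, so no expression of *Apoe* in AM-like cells is read from these values. The part of free RNA in them was not tested.

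**Figure D3:**
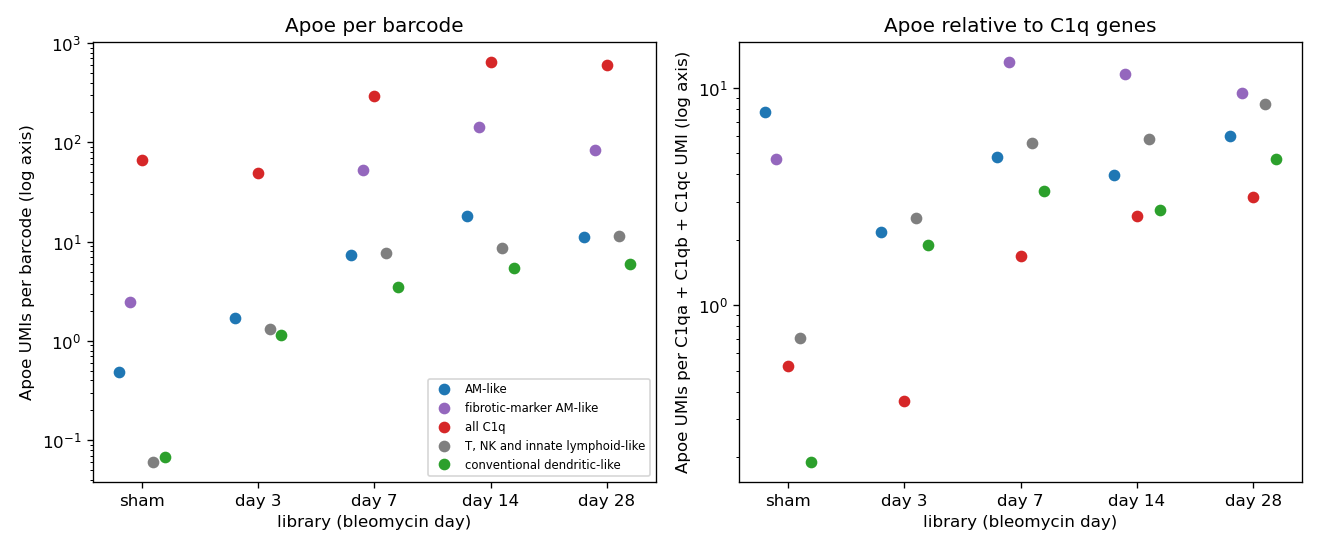
Left, mean Apoe UMIs per barcode (log axis) by library in C1q macrophages, both AM-like gates and 2 types that should lack the gene; right, Apoe UMIs for each UMI of C1qa, C1qb and C1qc (log axis). AM-like and lymphoid barcodes lie together at day 3, 7 and 28, and both gates of AM-like cells are below C1q macrophages on the left axis in every library.

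AM-like cells with fibrotic markers held more than the other AM-like cells, 116 CPM in sham and 2337, 4257 and 3005 CPM at day 7, 14 and 28. This was 53.2 to 142 UMIs per barcode in the 3 bleomycin libraries, against at most 11.3 in T, NK and innate lymphoid-like cells. B cell-like barcodes held 20.8, 11.4 and 14.1 at day 7, 14 and 28, and neutrophil-like barcodes 31.6, 5.79 and 5.00. As CPM, B cell-like cells were at 2483, 1573 and 3475 and neutrophil-like cells at 2765, 1798 and 2023 on these days. In CPM, B cell-like cells were thus above fibrotic-marker AM-like cells at day 7 and day 28, and neutrophil-like cells at day 7. Fibrotic-marker barcodes were deeper, at medians of 22917, 32834 and 25703 UMIs against 6681, 5436 and 3213 in B cell-like barcodes. *Apoe* was also set beside *C1qa*, *C1qb* and *C1qc*. The C1q limit cuts this ratio, since C1q macrophages had to pass it and the other types had to lie under it. There were 13.1, 11.5 and 9.45 *Apoe* UMIs per C1q UMI in fibrotic-marker AM-like cells at day 7, 14 and 28, 1.68, 2.58 and 3.13 in C1q macrophages, and 5.56, 5.81 and 8.39 in lymphoid cells. B cell-like barcodes were at 18.4, 9.52 and 17.9, and neutrophil-like barcodes at 11.3, 4.90 and 5.59. With C1q set by the gates, these ratios cannot tell whether the *Apoe* outside C1q macrophages came from them, and its source was not tested. Single fibrotic-marker cells differed widely: at day 14 the 10th percentile was 2.17, the median 20.8 and the 90th percentile 114 UMIs per 10000. Mixed barcodes, in which 1 droplet held 2 cells, were not told apart from these.

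*Apoc1*, the neighbour of *Apoe*, encodes a small apolipoprotein of HDL and remnant particles, and it was found in few cells of either type. In AM-like cells it was at 10.5 CPM in the sham library (9.81 to 11.2), 30.7 CPM at day 3 (27.4 to 34.3), 46.1 CPM at day 7 (43.7 to 48.7), 55.5 CPM at day 14 (53.2 to 57.8) and 51.8 CPM at day 28 (49.9 to 53.7). All 4 bleomycin libraries were above sham. In C1q macrophages it was at 69.6 CPM in the sham library (53.1 to 89.7), 30.8 CPM at day 3 (27.8 to 34.0), 17.3 CPM at day 7 (15.9 to 18.8), 9.11 CPM at day 14 (8.17 to 10.1) and 16.5 CPM at day 28 (15.2 to 18.0), and here all 4 were below sham, but the sham value rests on 60 UMIs held by 2 of 64 cells. The others held 0, so this level is that of 2 barcodes and its counting interval is too narrow for the type. The AM-like level was also carried by a minority, 6.75% of cells in sham and 19.1% at day 14. C1q macrophages were above AM-like cells in sham, level with them at day 3 and below them later, with log2 ratios of 2.73 (2.33 to 3.11), 0.00 (-0.21 to 0.22), -1.41 (-1.56 to -1.27), -2.61 (-2.77 to -2.44) and -1.65 (-1.78 to -1.52) in the order of the libraries. The sham ratio turned to -3.73 when clusters were gated in place of single barcodes. Lymphoid cells held 1.28 to 4.44 CPM, under the AM-like level in each library. The highest *Apoc1* of these gates was in fibrotic-marker AM-like cells at day 14, 154 CPM (95% interval 139.8 to 169), followed by day 28 with 99.98 CPM (95% interval 95.1 to 105), whereas in sham they were at 1.58 CPM (95% interval 0.512 to 3.68). At day 14 these UMIs were held by 18.8% of 85 cells.

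*Pltp* encodes a secreted protein that transfers phospholipid between lipoproteins. Between these 2 types its level was highest in the C1q macrophages of sham, and in this type it was at 678 CPM in the sham library (624 to 735), 191 CPM at day 3 (184 to 199), 145 CPM at day 7 (141 to 149), 151 CPM at day 14 (147 to 155) and 275 CPM at day 28 (269.6 to 281). The libraries after bleomycin were all below sham. AM-like cells were at 91.8 CPM in the sham library (89.8 to 93.8), 119 CPM at day 3 (113 to 126), 109 CPM at day 7 (105 to 113), 124 CPM at day 14 (121 to 128) and 233 CPM at day 28 (229 to 237), with day 28 well above the rest. The log2 ratio of C1q to AM-like cells went from 2.88 (2.76 to 3.01) in sham to 0.24 (0.20 to 0.28) at day 28. Other types held *Pltp* too: plasmacytoid dendritic-like cells were at 355 to 983 CPM in the 4 libraries with at least 20 of them, and the few endothelial-like cells at 96.3 CPM (day 7) to 1093 CPM (day 28). In sham both types, at 355 and 432 CPM, were below C1q macrophages.

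*Lpcat3*, whose enzyme puts polyunsaturated chains into membrane phospholipids, varied little in time. AM-like cells were at 107 CPM in sham and 94.3, 104, 101 and 109 CPM at day 3, 7, 14 and 28, and C1q macrophages at 39.5 CPM in sham and 38.1, 40.2, 47.6 and 47.3 CPM at day 3, 7, 14 and 28. The types were apart in every library, by log2 ratios of -1.44 in sham to -1.08 at day 14. *Mylip* had no fixed order: AM-like cells were at 49.4 CPM in sham and 26.6, 39.0, 35.1 and 62.7 CPM at day 3, 7, 14 and 28, and the log2 ratio of C1q to AM-like cells was 0.83 (0.62 to 1.04) at day 3 and -1.03 (-1.13 to -0.93) at day 28.

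The counts of these genes can be set beside those of all genes, where called means at least 2-fold apart among genes with a mean of at least 25 CPM over both groups. In AM-like cells against sham, 1 of 8 such members was higher at day 3 (*Apoe*, with *Apoc1* under the limit on level), where 4.05% of 5092 genes were higher and 1.81% lower. At day 7, 2 of 9 were higher (*Apoe* and *Apoc1*), against 1.77% of all genes higher and 1.73% lower, and at day 14 the same 2, against 2.80% and 2.03%. At day 28, 4 of 9 were higher (*Abca1*, *Apoc1*, *Apoe* and *Pltp*), against 2.59% higher and 3.00% lower. No member was 2-fold lower on any day. The median log2 ratio over the members was -0.06, -0.03, -0.08 and 0.34 on the 4 days, and over all genes -0.09, -0.09, -0.03 and -0.02. *Apoe*, which types that should lack it also held, is in each of these counts.

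In C1q macrophages against AM-like cells, 3 members were higher and 3 lower in sham, where 9.85% of all genes were higher and 12.3% lower. One of the 3 higher was *Apoc1*, with its UMIs in 2 cells. At day 3, 2 were higher and 2 lower, against 9.37% and 10.2%. At day 7, 1 was higher and 4 lower, against 6.07% and 9.96%. At day 14, 2 were higher and 4 lower, against 4.71% and 8.74%, and at day 28, 1 was higher and 5 lower, against 5.00% and 12.7%. *Apoe* was higher and *Abcg1* and *Lpcat3* were lower in all 5 libraries. *Nr1h3* was lower in 4 of them, with day 3 the exception. Since the members were chosen with these values known, nothing is read from how their shares stand to those of all genes.

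**Figure D4:**
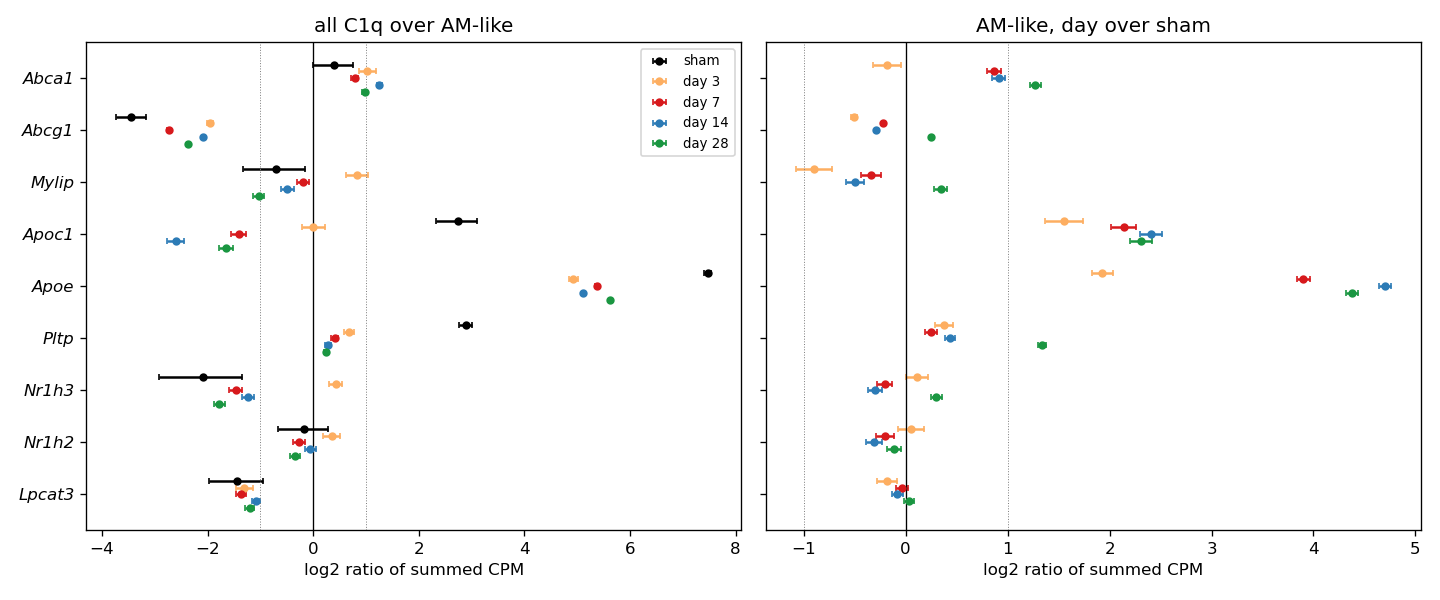
Log2 ratios of summed CPM for the 9 genes, left for all C1q macrophages over AM-like cells in each of 5 libraries, right for AM-like cells of each bleomycin day over sham; bars are exact 95% counting intervals and dotted lines mark 2-fold. Abcg1 and Lpcat3 lie left of 0 in all 5 libraries, Apoe right of it, and on the right side Apoe and Apoc1 lie above sham on all 4 days. Types that should lack Apoe held it too, so its ratios on the right are not read as expression in AM-like cells.

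Barcodes left outside the gates were looked at for the same genes. Double-gated barcodes, which passed both the alveolar and the C1q limit and were kept out of the types above, numbered 101 at day 7, 148 at day 14 and 337 at day 28. Their *Abcg1* was at 802, 641 and 744 CPM at day 7, 14 and 28, between the levels of the 2 types, and their *Abca1* at 179, 214 and 233 CPM at day 7, 14 and 28. *Apoe* in them was at 10823, 15528 and 15567 CPM at day 7, 14 and 28. Macrophages that passed no gate held 25.7 CPM in sham and 75.6, 132, 137 and 151 CPM at day 3, 7, 14 and 28 of *Abca1* and 352 CPM in sham and 375, 441, 532 and 677 CPM at day 3, 7, 14 and 28 of *Abcg1*.

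The reporter offered another division of the cells, into those with 3 or more UMIs of the tdT transcript (feature RFP) and those with 0. RFP stood at 117, 121 and 92.1 CPM in AM-like cells of sham, day 3 and day 7, no higher than the 133, 191 and 154 CPM of lymphoid cells. The shares with 3 or more RFP UMIs went the other way, at 28.7%, 24.1% and 15.2% of AM-like cells and 5.85%, 13.8% and 14.0% of lymphoid cells. AM-like cells were deeper, at a median of 16535 against 5092 UMIs in sham. At day 14 and day 28 it was at 666 and 378 CPM in AM-like cells and at 348 and 206 CPM in lymphoid cells. In these later libraries, 1111 AM-like cells were reporter-positive and 111 reporter-free at day 14, and 1025 and 825 at day 28. The log2 ratio of positive to free cells at day 14 and day 28 was -0.44 and -0.20 for *Abca1*, -0.24 and -0.21 for *Abcg1*, -1.14 and -0.61 for *Apoc1* and -0.41 and -0.20 for *Pltp*. It was -0.17 and -0.45 for *Mylip* and -0.07 and -0.18 for *Lpcat3*, whose intervals spanned 0 at day 14. *Apoe* went the other way, at 0.52 and 0.06, and the intervals of *Nr1h3* (0.11 and 0.09) and *Nr1h2* (-0.17 and -0.07) spanned 0 in both libraries. In sham, day 3 and day 7, RFP of AM-like cells was not above that of lymphoid cells in CPM. There the log2 ratio of positive to free cells was -0.88, -0.93 and 0.01 for *Abca1*, -0.33, -0.24 and -0.20 for *Abcg1* and -1.41, -1.66 and 0.45 for *Apoc1*. For *Apoe* it was -0.78, 1.06 and 1.66, larger at day 3 and day 7 than in the later libraries. *Apoc1* was thus higher with the reporter at day 7, and *Apoe* at day 3 and day 7. Positive AM-like cells were deeper, at a median of 19683 against 14899 UMIs at day 28, and the part of depth in these ratios was not tested.

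In C1q macrophages RFP was at 753, 427, 1443 and 355 CPM on the 4 bleomycin days, above lymphoid cells on each. The log2 ratio of positive to free cells on these days was 0.46, 0.48, 0.35 and -0.05 for *Abcg1* and 0.38, 0.21, 0.07 and -0.29 for *Abca1*. Both transporters were thus higher with the reporter at day 3 and day 7. Positive C1q macrophages were also deeper, at medians of 16091 against 10241 UMIs at day 3 and 16680 against 13649 at day 7. Of classical monocyte-like cells, 84.1% had 3 or more RFP UMIs at day 3 and 6.50% at day 7. Reporter-free C1q macrophages of these 2 days may therefore not be alike, and neither point was tested. *Pltp* was lower with the reporter on all 4 days, at -0.63, -0.15, -0.53 and -0.48. *Apoe* was at 0.57, 0.20, -0.09 and -0.12 and *Apoc1* at 0.49, -1.07, 0.17 and -0.44, with no fixed direction.

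The 4 lists of other pathway genes, 81 genes in all, were tested between types with edgeR's quasi-likelihood test on UMIs summed per type and library, with the library as a block and Benjamini–Hochberg adjustment over all genes tested. The lists were chosen with earlier results of these data known, and the p-values do not allow for that choice. For C1q macrophages against AM-like cells in 5 libraries, 13590 genes were tested, of which 18.8% were higher and 18.7% lower in C1q macrophages at an adjusted p under 0.05. Here too only the C1q side included cells with fibrotic markers, and their part in the differences was not tested. Of 75 list genes tested, 13 were higher and 41 lower. Values are means ± SD over n = 5 libraries, with C1q macrophages first.

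The genes of cholesterol synthesis driven by SREBP2, the factor that cells use when sterols are scarce, showed the clearest direction: 19 of 23 were lower in C1q macrophages, 0 higher and 4 did not pass, and the list's median log2 fold change was -1.28, against 0.03 over all genes. *Hsd17b7*, a sterol reductase, was at 8.52 ± 4.95 CPM against 45.2 ± 12.7 CPM, lower with a log2 fold change of -2.47 ± 0.48 (SE, adjusted p = 0.0063). *Idi1*, the isoprenoid isomerase, was at 31.3 ± 14.9 CPM against 131 ± 38.8 CPM, lower with a log2 fold change of -2.03 ± 0.33 (SE, adjusted p = 0.0028). *Hmgcs1*, the HMG-CoA synthase, was at 51.4 ± 25.2 CPM against 196 ± 53.5 CPM, lower with a log2 fold change of -1.91 ± 0.25 (SE, adjusted p = 0.0011). All 3 were lower in 5 of 5 libraries.

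Among other LXR targets, 6 of 18 were higher and 10 lower. *Cd5l*, a secreted macrophage protein gene, was at 30.4 ± 27.3 CPM against 0.337 ± 0.240 CPM, higher with a log2 fold change of 6.31 ± 0.76 (SE, adjusted p = 0.00083). *Apoc2*, a neighbour of *Apoe*, was at 3.02 ± 1.80 CPM against 0.226 ± 0.202 CPM, higher with a log2 fold change of 3.92 ± 0.34 (SE, adjusted p = 0.00042). *Apoc4*, another neighbour of *Apoe*, was at 4.39 ± 3.31 CPM against 0.357 ± 0.257 CPM, higher with a log2 fold change of 3.72 ± 0.39 (SE, adjusted p = 0.00047). The 2 *Apoc* genes were near 0 in AM-like cells and higher in 4 of 5 libraries. *Apoc2* has 2 rows of the same symbol in the tables. *Scd1*, a fatty acid desaturase, was at 6.42 ± 3.54 CPM against 52.1 ± 40.4 CPM, lower with a log2 fold change of -2.92 ± 0.24 (SE, adjusted p = 0.00018). *Lpl*, the lipoprotein lipase, was at 873 ± 773 CPM against 2633 ± 636 CPM, lower with a log2 fold change of -2.03 ± 0.57 (SE, adjusted p = 0.027). *Tgm2*, a transglutaminase, was at 89.9 ± 46.6 CPM against 326 ± 51.7 CPM, lower with a log2 fold change of -1.85 ± 0.18 (SE, adjusted p = 0.00037). These 3 were lower in 5 of 5 libraries.

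Genes of cholesterol uptake, storage and lysosomal export were divided, with 7 of 23 higher, 7 lower and 9 not past the threshold. *Vldlr*, a lipoprotein receptor, was at 0.321 ± 0.197 CPM against 0.102 ± 0.0626 CPM, higher with a log2 fold change of 1.94 ± 0.43 (SE, adjusted p = 0.01). This level is near 0 in both types. *Cyp27a1*, a sterol hydroxylase, was at 10.3 ± 6.18 CPM against 2.68 ± 0.654 CPM, higher with a log2 fold change of 1.83 ± 0.32 (SE, adjusted p = 0.0039). *Trem2*, a lipid receptor, was at 615 ± 337 CPM against 179.99 ± 54.9 CPM, higher with a log2 fold change of 1.75 ± 0.21 (SE, adjusted p = 0.00079). Both were higher in 5 of 5 libraries. *Ch25h*, the hydroxylase that makes an oxysterol, was at 16.1 ± 11.6 CPM against 96.1 ± 49.2 CPM, lower with a log2 fold change of -2.60 ± 0.20 (SE, adjusted p = 0.00015). *Stard4*, a sterol carrier, was at 14.96 ± 8.13 CPM against 46.7 ± 9.86 CPM, lower with a log2 fold change of -1.73 ± 0.35 (SE, adjusted p = 0.007). *Nceh1*, a cholesteryl ester hydrolase, was at 169 ± 60.2 CPM against 535 ± 163 CPM, lower with a log2 fold change of -1.54 ± 0.21 (SE, adjusted p = 0.0013). These 3 were lower in 5 of 5 libraries.

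Of the LXR partners and co-regulators, 0 of 11 were higher and 5 lower. *Rxra*, the partner receptor, was at 40.5 ± 10.2 CPM against 115 ± 7.22 CPM, lower with a log2 fold change of -1.40 ± 0.18 (SE, adjusted p = 0.00099). *Ncoa1*, a coactivator, was at 32.2 ± 6.92 CPM against 67.4 ± 6.75 CPM, lower with a log2 fold change of -0.98 ± 0.11 (SE, adjusted p = 0.00063). *Tbl1xr1*, a corepressor subunit, was at 56.3 ± 10.3 CPM against 91.5 ± 20.7 CPM, lower with a log2 fold change of -0.59 ± 0.10 (SE, adjusted p = 0.0032). At day 3, the one library in which *Nr1h3* was higher in C1q macrophages, *Rxra* was at 26.2 CPM in C1q macrophages and 112 CPM in AM-like cells.

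**Figure D5:**
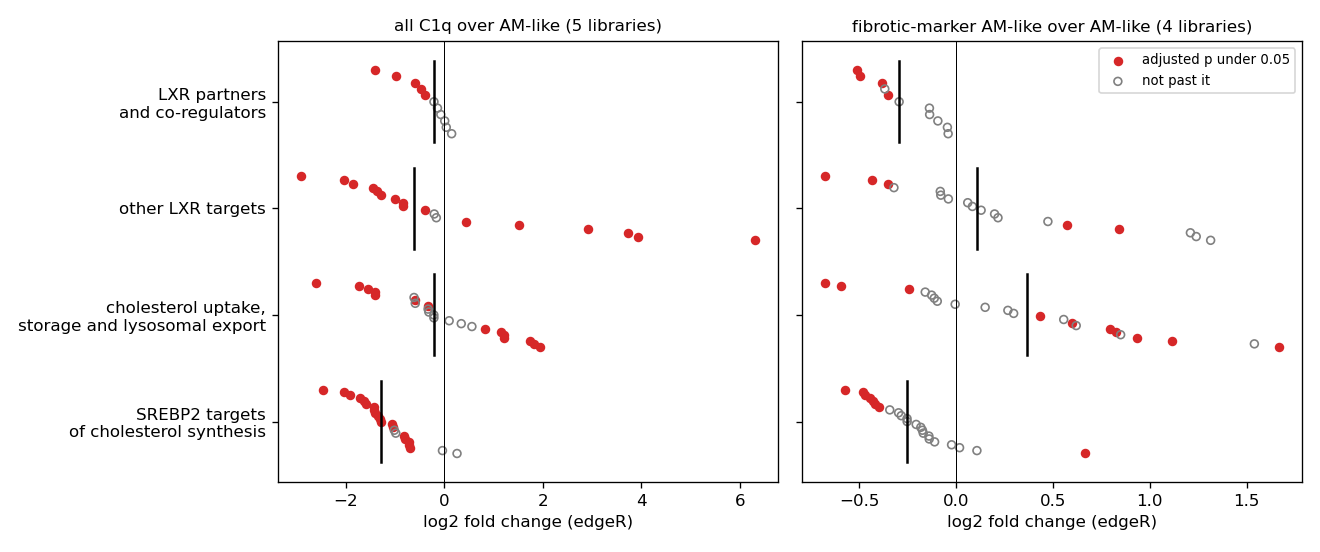
Log2 fold changes (edgeR) of the genes of 4 lists, left for all C1q macrophages over AM-like cells, right for AM-like cells with fibrotic markers over those without; filled points passed an adjusted p of 0.05 over all genes, open points did not, and vertical bars are list medians. On the left, 19 of 23 genes of cholesterol synthesis are filled and below 0; on the right, filled points lie on both sides except among LXR partners.

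For AM-like cells with fibrotic markers against those without, 4 libraries entered (sham, day 7, day 14 and day 28) and 12634 genes were tested, of which 10.0% were higher and 9.66% lower. Of 74 list genes, 10 were higher and 17 lower. Without the library block, 1 list gene passed, and with the gate limits raised 1.5 times or without the day 14 library 16 did, so the single calls of this comparison depend on those choices.

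The uptake, storage and export list had the most genes higher in the fibrotic-marker cells, 7 of 22, with 3 lower and 12 not past the threshold. Values are again means ± SD, here over n = 4 libraries. *Cd36*, a receptor for fatty acids and oxidised LDL, was at 627 ± 119.6 CPM against 243 ± 154 CPM, higher with a log2 fold change of 1.67 ± 0.20 (SE, adjusted p = 0.00029). *Trem2* was at 364 ± 139 CPM against 181 ± 63.4 CPM, higher with a log2 fold change of 1.11 ± 0.08 (SE, adjusted p = 1.0e-05). *Abca5*, a lysosomal transporter, was at 3.39 ± 0.989 CPM against 2.00 ± 0.406 CPM, higher with a log2 fold change of 0.94 ± 0.26 (SE, adjusted p = 0.028). Each was higher in 4 of 4 libraries. *Stard4* was at 25.3 ± 4.04 CPM against 45.4 ± 10.9 CPM, lower with a log2 fold change of -0.67 ± 0.10 (SE, adjusted p = 0.0014). *Scarb1*, the HDL receptor, was at 39.4 ± 6.13 CPM against 63.9 ± 11.5 CPM, lower with a log2 fold change of -0.59 ± 0.09 (SE, adjusted p = 0.0012). *Nceh1* was at 446 ± 80.7 CPM against 579 ± 149 CPM, lower with a log2 fold change of -0.24 ± 0.07 (SE, adjusted p = 0.033). These 3 were lower in 4 of 4 libraries.

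Of 23 genes of cholesterol synthesis, 1 was higher and 7 lower. *Dhcr7*, a late sterol reductase, was at 57.97 ± 18.3 CPM against 39.9 ± 7.28 CPM, higher with a log2 fold change of 0.66 ± 0.11 (SE, adjusted p = 0.0016). It was the one higher. *Hmgcs1* was at 128 ± 41.3 CPM against 195 ± 61.7 CPM, lower with a log2 fold change of -0.48 ± 0.10 (SE, adjusted p = 0.0088). *Mvk*, the mevalonate kinase, was at 12.5 ± 3.14 CPM against 19.4 ± 3.78 CPM, lower with a log2 fold change of -0.47 ± 0.13 (SE, adjusted p = 0.032).

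Among other LXR targets, 2 of 18 were higher and 3 lower. *Fads1*, a fatty acid desaturase, was at 17.3 ± 8.58 CPM against 10.6 ± 4.65 CPM, higher with a log2 fold change of 0.84 ± 0.13 (SE, adjusted p = 0.0015). *Smpdl3a*, a phosphodiesterase, was at 323 ± 28.8 CPM against 237 ± 46.8 CPM, higher with a log2 fold change of 0.58 ± 0.09 (SE, adjusted p = 0.0014). These were the 2 that were higher. *Elovl6*, a fatty acid elongase, was at 5.48 ± 1.76 CPM against 10.5 ± 3.51 CPM, lower with a log2 fold change of -0.68 ± 0.19 (SE, adjusted p = 0.028). *Srebf1*, the regulator of fatty acid synthesis, was at 27.1 ± 2.61 CPM against 40.1 ± 5.84 CPM, lower with a log2 fold change of -0.43 ± 0.10 (SE, adjusted p = 0.011). *Elovl5*, another elongase, was at 41.2 ± 6.79 CPM against 57.3 ± 8.70 CPM, lower with a log2 fold change of -0.35 ± 0.08 (SE, adjusted p = 0.015).

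Of 11 partners and co-regulators, 0 were higher and 4 lower. *Ncoa1* was at 44.5 ± 2.72 CPM against 67.9 ± 7.68 CPM, lower with a log2 fold change of -0.51 ± 0.09 (SE, adjusted p = 0.0037). *Rxra* was at 76.8 ± 13.05 CPM against 115 ± 8.18 CPM, lower with a log2 fold change of -0.49 ± 0.08 (SE, adjusted p = 0.002). The markers of C1q macrophages were also higher in the fibrotic-marker cells, at 318 CPM of the C1q genes against 96.6 CPM in the other AM-like cells at day 28 and 9127 CPM in C1q macrophages, and their part in these differences was not tested.

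In AM-like cells over time, where 1 library stands for each day, the synthesis genes had a median log2 ratio to sham of 0.79, 0.41, 0.74 and 0.38 at day 3, 7, 14 and 28, against -0.09, -0.09, -0.03 and -0.02 over all genes. At least 2-fold higher were 6 of 18 at day 3, 1 of 17 at day 7, 5 of 20 at day 14 and 2 of 18 at day 28, and 0 were 2-fold lower on any day. Over all genes 4.05%, 1.77%, 2.80% and 2.59% were 2-fold higher, and the counts of day 7 and day 28 rest on 1 and 2 genes. The 6 at day 3, named after their values were seen, were *Pmvk*, *Mvd*, *Idi1*, *Fdft1*, *Cyp51* and *Hsd17b7*. In the same cells *Abca1* and *Abcg1* were at their lowest of the 5 libraries at day 3, while *Apoe*, *Apoc1* and *Pltp* were above sham there. Lymphoid cells, which should lack *Apoe*, held 145 CPM of it at day 3 against 106 CPM in AM-like cells, so its level is not read as expression. At day 14, where the synthesis median was 0.74, *Abca1* was 1.88 times sham and *Abcg1* 0.82 times sham.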

How the data were processed

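Lung cells of 5 libraries, 1 per time point, were examined. The authors deposited raw UMI counts per gene and barcode, made with Cell Ranger 6.0.0 on mm10 per the submitters' processing notes. Library totals ran from 89769386 to 167506186 UMIs, and counting error is the only error the intervals hold. A barcode was kept when it had between 300 and 8000 genes, between 800 and 60000 UMIs and less than 15% of UMIs from mitochondrial genes (Python 3.11.15, scanpy 1.11.5). Marker UMIs per 10000 UMIs placed barcodes in types, with limits of 10 for alveolar, 15 for C1q and 20 for fibrotic markers, set after the marker distributions had been seen. Barcodes that passed the gates of 2 lineages were left out as possible doublets. UMIs were summed per type and library and scaled to CPM. Types with under 20 cells were not used.

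Lists of other genes were tested with edgeR 4.0.16 (R 4.3.3) on summed counts, with TMM scaling, filterByExpr and the library as a block, with SD and n over libraries. Nothing in the labels says whether libraries hold separate animals. With the library as a block, these p-values measure how the difference between types varied from library to library. Each library is another time point, so that variation also holds any change of the difference over time. The edgeR step was tested on simulated data. The alternatives were DESeq2 1.42.0, other filters, scalings and gate limits, gated clusters (leidenalg 0.10.2), removal of the highest Scrublet scores and leaving out each library. The members and lists were chosen with earlier results of these data known. Named list genes are the 3 largest log2 fold changes in each direction past an adjusted p of 0.05, and like genes are the 3 highest Pearson correlations. A few genes that this rule names are not reported here. Columns of other samples numbered 0.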

Additional observations from a re-analysis of the deposited data

Results flagged for a closer look

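For 2 genes every bleomycin library lay on opposite sides of sham in the 2 macrophage types. *Apoc1* in AM-like cells had log2 ratios to sham of 1.55, 2.14, 2.41 and 2.31 at day 3, 7, 14 and 28, while in C1q macrophages they were -1.18, -2.01, -2.94 and -2.08. *Pltp* in AM-like cells had log2 ratios of 0.38, 0.25, 0.43 and 1.34, while in C1q macrophages they were -1.82, -2.22, -2.17 and -1.30. With 1 library per time point the difference between the types was not tested. All C1q ratios share the sham library, in which this type held 64 cells. The *Apoc1* of that sham group was 60 UMIs in 2 cells, so its 4 C1q ratios rest on 2 barcodes. With clusters gated in place of barcodes, the sham log2 ratio of *Apoc1* in C1q macrophages to AM-like cells went from 2.73 to -3.73.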

How the results depend on the processing

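Of 105 recomputed counts, 99 were within 1.5 times of the value given. Of 720 recomputed ratios between groups, 9 that had been called came below 2-fold, 6 from under 2-fold came past it and 1 that had been called reversed. The other 704 had none of these changes. Reversals and falls below 2-fold were looked for only in called ratios, those at least 2-fold at a mean of at least 25 CPM, so a change of sign in the others was not counted. The reversed value is *Apoc1* in C1q macrophages over AM-like cells in sham, at -3.73 on the log2 scale with clusters gated. For AM-like cells with fibrotic markers against those without, 27 list genes passed with the library block, 1 without it and 16 with the gate limits raised 1.5 times; leaving out each library gave 16 to 35, with 16 without day 14. The same range for C1q macrophages against AM-like cells was 37 to 52, beside 54. Members higher in AM-like cells numbered 2 in place of 1 at day 3 with no filter beyond 3 counts, and 1 in place of 2 at day 7 with raised limits or with *Atp6v0d2* left out of the alveolar gate, an alternative chosen after seeing the data. The causes were not tested. Of 981 recomputed levels, 964 were within 1.5-fold, and 704 stayed within the counting interval of the level given. The printed intervals thus do not cover the choices of processing. The tests between types are paired within libraries by the library block, and time points, with 1 library each, were not tested. Values of C1q macrophages in sham rest on 64 cells.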
